A study of Mus musculus with 6 samples.

Results

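The loci described here are long non-coding RNA (lncRNA) loci of middle length that were at a low level in at least 1 zygote library. A locus was taken when its value was under 10 RPKM (a read count divided by transcript length and by library size), 0 included, in at least 1 of 6 libraries. Its mean over the 6 also had to be under 400 RPKM, its genomic span at least 2000 and under 50000 bp, and its coordinates listed only once. This gave 344 loci, 10.4% of the 3307 listed and 14.4% of the 2385 of middle length with coordinates listed once. The members were thus chosen by their RPKM values in these 6 libraries, without regard to group. The counts of low values below therefore describe the choice, and no test is made of them. Loss and drop-out stand here for a value under 10 RPKM, not for absence: 256 of the 344 loci were above 0 in every library. The zygotes came from C57BL/6 mice at the pronucleus stage, 3 libraries under normal gravity (control) and 3 under simulated microgravity, with no other treatment named. The 3 titles of a group share a prefix before the replicate number whose meaning is not given. Whether the libraries came from separate embryo pools is not given either. The p-values then reflect no more than the spread among these 6, part of which may be technical.

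A lncRNA is a transcript that is not translated into a protein. Some lncRNAs act on chromatin or on neighbouring genes, and for many no function is known. At the pronucleus stage the RNA of the mouse zygote is mostly inherited from the oocyte, inherited RNA is being degraded, and transcription of the embryo's own genome is only beginning. The tables name loci by assembly number and mm9 coordinates, with no gene name or strand. No locus could therefore be given a gene, an exon structure or a role, and the identity of the cells could not be checked against marker genes. Sequence of the mm9 genome was not used here, and no locus sequence is shown. No member overlapped another listed locus: the nearest one lay at a median distance of 178952 bp, and never closer than 61 bp.

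Intermittent loss went with low abundance, both being read from the same values. The members had a median mean level of 22.5 RPKM (quartiles 17.4 and 27.4), against 84.5 RPKM for the other 2041 loci of middle length. All 21 mid-length loci with a mean under 10 RPKM were members, as they had to be. The share was 91.2% between 10 and 20 RPKM (114 of 125 loci) and 45.0% between 20 and 30 RPKM (148 of 329). It was 15.1% between 30 and 40 RPKM (39 of 258), 5.41% between 40 and 60 RPKM (19 of 351) and 0.255% between 60 and 100 RPKM (1 of 392). Only 2 of 614 loci with a mean between 100 and 400 RPKM were members. The ceiling of 400 RPKM removed no locus, since no mid-length locus with a higher mean was under 10 RPKM in any library.

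**Figure D1:**
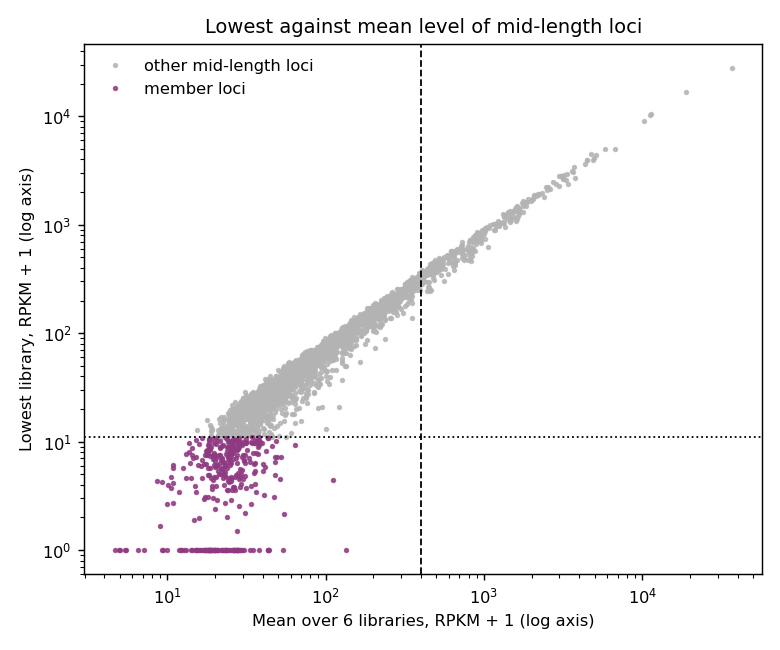
Each point is 1 mid-length locus, with its mean over the 6 libraries on the x axis and its lowest library on the y axis, both as RPKM + 1 on log axes. The dotted line marks 10 RPKM and the dashed line 400 RPKM; the 344 members lie below the dotted line, and those listed at 0 in a library form the row at the bottom.

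At the limits on the lowest level and on the span there was no break in the data, and the ceiling on the mean was not reached. The members closest to 10 RPKM were XLOC_021666 on chromosome 4, with a lowest value of 9.91 RPKM, and XLOC_008419 on chromosome 13, with 9.92 RPKM. The loci just outside were XLOC_030956 on chromosome 9, with 10.006 RPKM, and XLOC_018928 on chromosome 3, with 10.1 RPKM. By span the shortest members were XLOC_004208 (2006 bp) and XLOC_023812 (2008 bp), and the nearest shorter loci that met the other limits were XLOC_000931 (1956 bp) and XLOC_008023 (1934 bp). The longest members, XLOC_005079 (48537 bp) and XLOC_017052 (47825 bp), were followed by XLOC_013517 (51340 bp) and XLOC_025325 (54263 bp) outside. The members with the highest means were XLOC_004208 (134 RPKM) and XLOC_001319 (109.6 RPKM), far under the ceiling.

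Most members were low in a single library, and which library it was varied from locus to locus. Of the 344, 181 (52.6%) were under 10 RPKM in 1 library, 95 (27.6%) in 2, 37 (10.8%) in 3, 20 in 4, 10 in 5 and 1 in all 6. Together 618 of 2064 values (29.9%) were under 10 RPKM, and 125 of these were listed at 0. The low values were spread over 53 of the 63 possible sets of libraries. All 344 loci still reached at least 9.10 RPKM in some library, and the median highest value was 47.6 RPKM. In 156 of them (45.3%) a library at 50 RPKM or more stood beside one under 10 RPKM. The number of zygotes per library is not given, so RNA missing from some zygotes and less RNA in each zygote cannot be told apart. Read numbers are not given either, and the part of counting error in the low values was not tested.

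**Figure D2:**
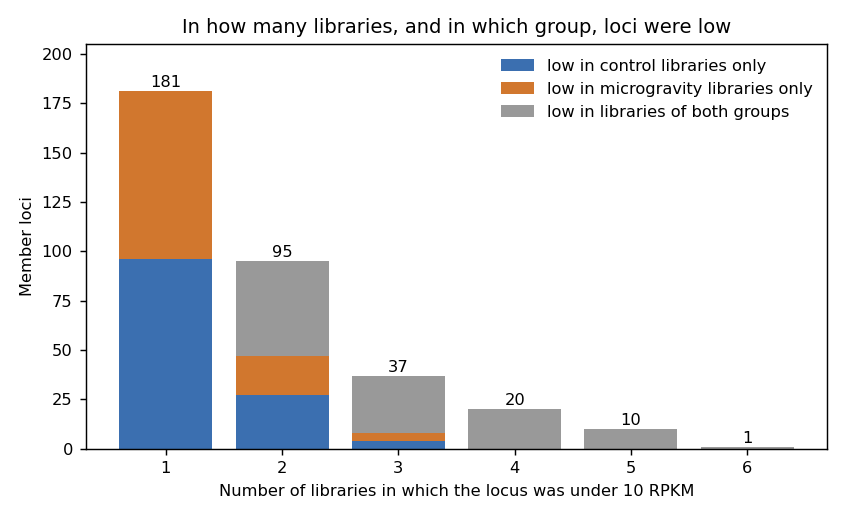
Bars count members by the number of libraries in which they were under 10 RPKM, with colours for loci low in control libraries only, in microgravity libraries only, or in both. The bar for 1 library is the tallest (181 loci), and from 4 libraries on every locus is low in both groups by construction.

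Every library took part in the loss. Control replicates 1, 2 and 3 had 116, 120 and 88 members under 10 RPKM, and microgravity replicates 1, 2 and 3 had 88, 113 and 93. The mean was 108 ± 17.4 (SD, n = 3) for control and 98 ± 13.2 (SD, n = 3) for microgravity, and the groups overlapped. Values of 0 were found at 19, 33 and 12 members in the control libraries and at 22, 25 and 14 in the microgravity libraries, again with overlap. Loci low in 1 library alone were most frequent for microgravity replicate 2 (41 loci) and least frequent for microgravity replicate 1 (17 loci), both of the same group. The control libraries held 36, 34 and 26 such loci, and microgravity replicate 3 held 27. Read depth is unknown, so how it bears on these counts was not tested.

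**Figure D3:**
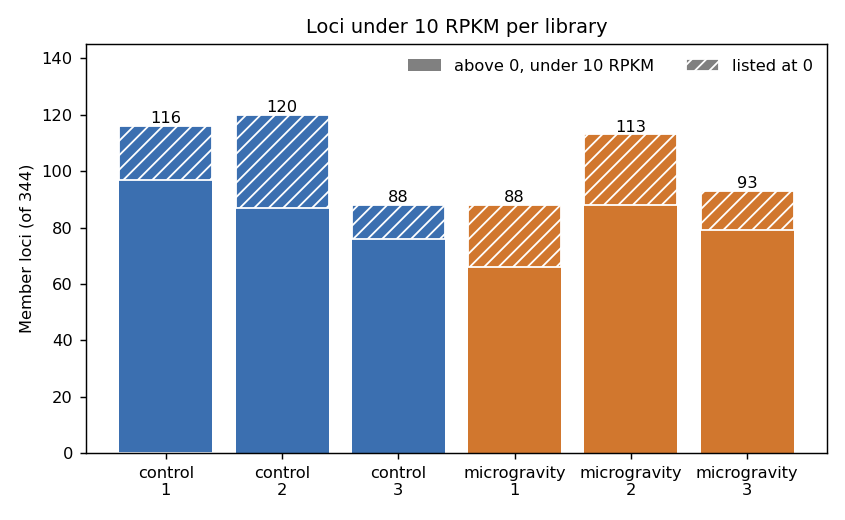
Bars give, for each library, how many of the 344 members were under 10 RPKM, with values listed at 0 hatched. The 3 control libraries (blue) run from 88 to 120 and the 3 microgravity libraries (orange) from 88 to 113, so the groups cover the same range.

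Drop-out followed the group at few loci. Of the members, 127 were low in control libraries only, 109 in microgravity libraries only and 108 in both, and most of the first 2 kinds were loci low in a single library. Among the 95 loci low in 2 libraries, 27 had both in control, 20 both in microgravity and 48 had 1 in each. These came from 3, 3 and 9 possible pairs of libraries. A control pair held 4 to 16 loci, a microgravity pair 4 to 9 and a mixed pair 2 to 9. The pair low together most often was control replicates 1 and 2, alone at 16 loci, and these were also the libraries with the most low members. Among the 37 loci low in 3 libraries, 4 were low in the 3 control libraries and 4 in the 3 microgravity libraries. Each of the other 18 sets of 3 libraries held 0 to 3 loci, so the 2 whole groups led by 1 locus. Over all 3307 listed loci, 4 (0.121%) were under 10 RPKM in all control and no microgravity libraries, and 5 (0.151%) the other way round. All but 1 of these 9 were members, and since the rule asks for a low library, nothing is read from that.

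The first 4 loci with group-wide loss were low in control. XLOC_013128 on chromosome 17 (17949603 to 17952466, mm9) was at 2.51, 0 and 6.02 RPKM in the control libraries and at 24.0, 26.5 and 43.1 RPKM in the microgravity libraries. XLOC_021171 on chromosome 4 (131864738 to 131866827) was at 0, 0 and 5.12 RPKM in control and at 69.4, 10.5 and 18.9 RPKM in microgravity. The high value of the second locus came from microgravity replicate 1 alone, and microgravity replicate 2 was barely above 10 RPKM. XLOC_019675 on chromosome 3 (67382971 to 67385400) was at 8.64, 0 and 0 RPKM in control and at 15.4, 69.5 and 15.3 RPKM in microgravity, with replicate 2 as the high library. XLOC_008122 on chromosome 13 (86209824 to 86223266) never reached 0, with 6.01, 5.77 and 7.13 RPKM in control and 37.1, 14.5 and 22.8 RPKM in microgravity. Its control libraries were the closest together of these 4 loci. The log2 differences on the log2(RPKM + 1) scale were 3.42 ± 1.19 (SE), 3.78 ± 1.54, 3.64 ± 1.49 and 1.73 ± 0.86 in the order given (limma, adjusted p between 0.586 and 0.626), and none passed the threshold of 0.05.

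The other 4 were low in microgravity. XLOC_002587 on chromosome 10 (64798534 to 64807129, mm9) was the only member listed at 0 in all 3 libraries of 1 group and above 0 in all 3 of the other. It was at 48.0, 20.0 and 12.1 RPKM in control and at 0 in each microgravity library, so no fold is given. No member was listed at 0 in all 3 control libraries and above 0 in all microgravity libraries. XLOC_010985 on chromosome 15 (5338280 to 5348251) was at 15.03, 30.4 and 35.5 RPKM in control and at 0, 0 and 8.76 RPKM in microgravity. XLOC_015163 on chromosome 18 (82347788 to 82350574) had 20.5, 36.0 and 40.3 RPKM in control and 0, 5.46 and 9.68 RPKM in microgravity. Both had their highest microgravity value in replicate 3, just under 10 RPKM. On the X chromosome, XLOC_032814 (38596488 to 38603591) had 96.5, 28.3 and 20.3 RPKM in control and 3.49, 8.84 and 6.98 RPKM in microgravity. The last 3 had log2 differences of -3.63 ± 1.45 (SE), -2.97 ± 1.14 and -2.48 ± 0.82 (limma, adjusted p = 0.616, 0.616 and 0.586). XLOC_002587 had an adjusted p of 0.616.

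**Figure D4:**
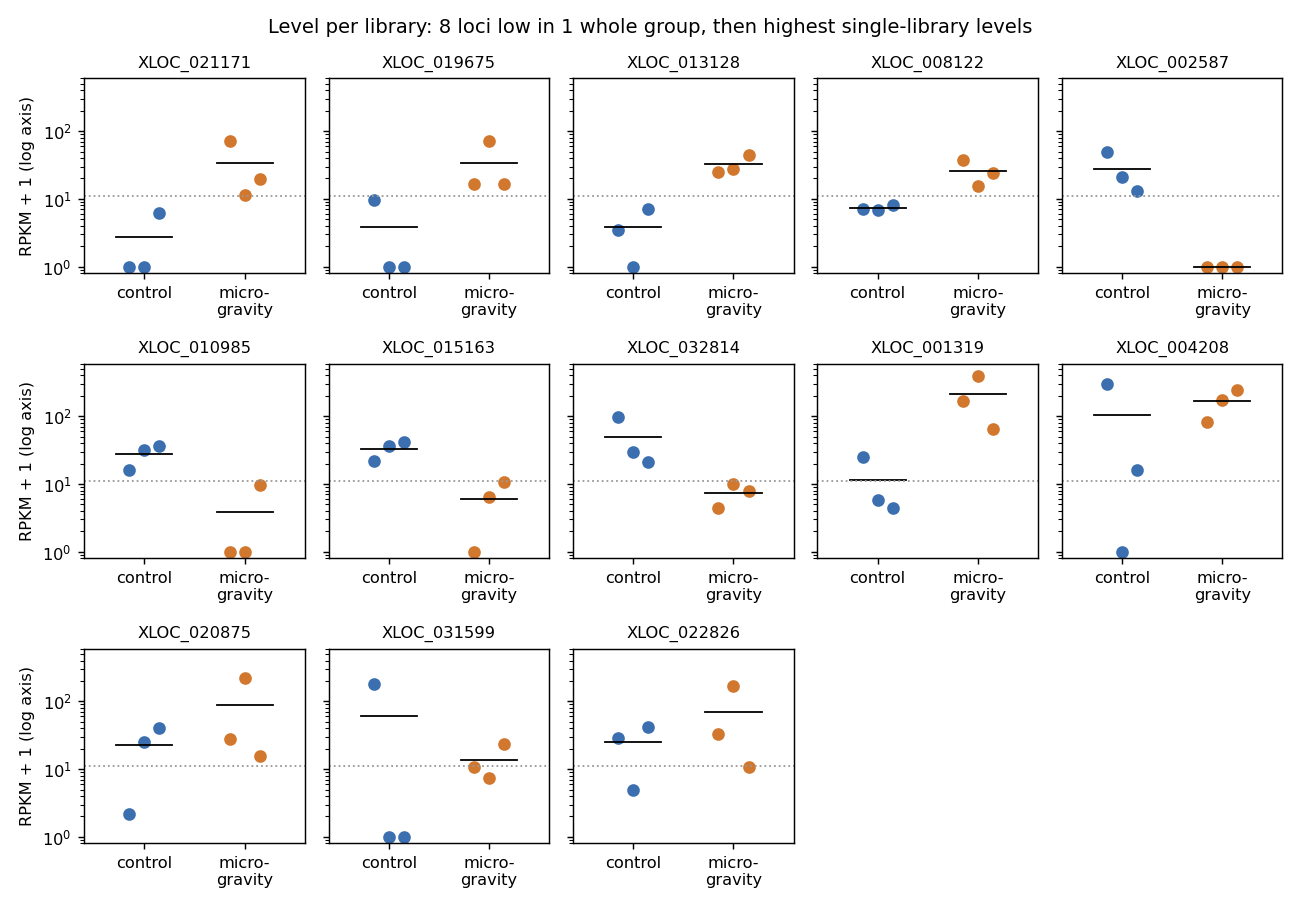
Each panel is 1 locus, with 1 point per library as RPKM + 1 on a log axis, a bar at the group mean and a dotted line at 10 RPKM. The first 8 panels hold the loci low in the whole of 1 group, and the last 5 those with the highest single-library values, where XLOC_004208, XLOC_020875, XLOC_031599 and XLOC_022826 show groups that overlap.

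Across the full table, microgravity and control were compared by limma on log2(RPKM + 1), with p-values adjusted by the Benjamini-Hochberg method over all 3301 loci that reached 1 RPKM in at least 3 libraries. Of the members, 341 entered the test. The 3 left out were XLOC_002926, XLOC_007775 and XLOC_008648, which were above 0 in only 2 libraries. No member was called in either direction (limma, lowest adjusted p = 0.327), where the whole table also gave 0% higher and 0% lower. At an unadjusted p under 0.05 there were 18 members with higher values in microgravity (5.28%, against 4.82% of all loci tested) and 12 with lower values (3.52%, against 3.09%). Fitted without trend and robust moderation, limma gave 0 calls and 41 members at unadjusted p under 0.05. Leaving out single libraries moved the split. The count with higher values was 10, 11 and 10 when microgravity replicate 1, 2 or 3 in turn was left out, and 29 without control replicate 3. The count with lower values was 19 without microgravity replicate 1 and 5 without control replicate 2. The 2 groups did not overlap at 32 members with higher values in microgravity (9.38%, against 7.39% of all loci tested) and at 21 with lower values (6.16%, against 6.24%). These shares lie near those of the whole table. The 53 such members became 81 to 96 when a library was left out, where fewer values had to lie apart.

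The spread at these loci was too wide to bound a difference. The 95% confidence interval of the log2 difference lay within 2-fold for 0 of 341 members, against 1583 of 3301 loci (48.0%), and the median standard error was 0.85 against 0.34. A rule that asks for 1 low library favours wide spread, so this difference is partly built in. The median log2 difference was 0.13 over the members and -0.0037 over all loci tested, with 178 members above 0 and 163 below. Without control replicate 1 the median over members was -0.041, and without control replicate 2 it was -0.052. At no single member could the data show that the groups differed by less than 2-fold.

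The members with the smallest p and higher values in microgravity were mostly ones with 1 or 2 low control libraries. XLOC_001319 on chromosome 1 (168268693 to 168281540, mm9), with 23.6, 4.80 and 3.41 RPKM in control and 166, 395 and 64.8 RPKM in microgravity, had the largest log2 difference of them, 4.25 ± 0.73 (SE; limma, adjusted p = 0.327). It was the 1 member called when control replicate 1, its highest control library, was left out (limma, log2 difference of 5.01, adjusted p = 0.0304). The other alternatives gave adjusted p values from 0.166 to 0.607. XLOC_001197 on chromosome 1 (140320176 to 140344807) was at 9.03, 21.3 and 20.8 RPKM in control and at 58.9, 38.9 and 67.2 RPKM in microgravity. XLOC_016692 on chromosome 2 (12425721 to 12457214) was at 24.2, 9.40 and 15.7 RPKM and at 35.8, 49.1 and 74.6 RPKM. These 2 were members only through 1 control library just under 10 RPKM, and their log2 differences were 1.69 ± 0.48 and 1.66 ± 0.50 (limma, adjusted p = 0.498 for both). XLOC_023867 on chromosome 5 (106986768 to 107003801) was at 0, 6.30 and 13.0 RPKM in control and at 37.4, 44.8 and 31.1 RPKM in microgravity (limma, log2 difference of 3.04 ± 1.08, adjusted p = 0.605). XLOC_013128, described above, completed the 5, and in all 5 the groups did not overlap, as a choice by smallest p favours.

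Among members lower in microgravity, XLOC_020692 had the smallest p. It lies on chromosome 4 (3314114 to 3316129, mm9) and was at 70.3, 58.4 and 99.5 RPKM in control and at 14.4, 9.10 and 0 RPKM in microgravity, so every control library was at least 58.4 RPKM (limma, log2 difference of -3.81 ± 0.94, adjusted p = 0.493). XLOC_000700 on chromosome 1 (4216714 to 4233295) was at 26.2, 67.0 and 32.3 RPKM in control and at 13.8, 9.35 and 2.76 RPKM in microgravity. XLOC_023812 on chromosome 5 (92997120 to 92999128) was at 47.7, 26.1 and 29.5 RPKM and at 12.9, 5.44 and 6.43 RPKM. Both were low in microgravity replicates 2 and 3 and above 10 RPKM in replicate 1. Their log2 differences were -2.25 ± 0.77 and -1.97 ± 0.71 (limma, adjusted p = 0.586 and 0.609). XLOC_032814 and XLOC_002587, given above, were the remaining 2.

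Values of at least 10 RPKM, taken as present, had similar medians in all libraries. They came from 224 to 256 members per library, not the same ones in each. The cut at 10 RPKM narrows such values, and single members often differed in level between libraries. Among values of at least 10 RPKM, the median was 24.7, 25.2 and 26.2 RPKM in control replicates 1 to 3 and 28.2, 26.8 and 25.4 RPKM in microgravity replicates 1 to 3, and the groups overlapped. The quartiles of these values lay between 17.1 and 18.0 RPKM at the lower end and between 35.8 and 42.7 RPKM at the upper. Together the members made up 0.877%, 0.798% and 0.919% of the summed RPKM of the control libraries. In the microgravity libraries they made up 0.949%, 0.983% and 0.915%, so the groups overlapped. Their summed level was 7922, 7121 and 8294 RPKM in control and 8814, 8772 and 8302 RPKM in microgravity, with no overlap, but by only a narrow gap. Without XLOC_001319 the sums were 7898, 7116 and 8290 RPKM in control and 8648, 8376 and 8238 RPKM in microgravity, and the groups overlapped.

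Some members stood out through 1 very high library beside a low one. In 77 of the 344 (22.4%) the highest library was at least 2 times the second highest, against 23 of the other 2041 mid-length loci (1.13%). In 27 it was at least 3 times as high (7.85%, against 0.0490%), and in 3 at least 5 times. These shares are a description, since a rule on low values also chooses uneven loci. XLOC_031599 on chromosome 9 (96349440 to 96364503, mm9) was at 182 RPKM in control replicate 1, at 0 in control replicates 2 and 3, and at 9.91, 6.31 and 22.3 RPKM in microgravity. XLOC_020875 on chromosome 4 (48818349 to 48856614) was at 217 RPKM in microgravity replicate 2 and at 1.16, 23.8, 39.9, 27.0 and 14.6 RPKM in the control libraries and microgravity replicates 1 and 3. XLOC_022826 on chromosome 5 (12091768 to 12132926) was highest in the same library, with 166 RPKM, against 27.7, 3.89 and 41.0 RPKM in control and 31.7 and 9.88 RPKM in the other microgravity libraries. In each of the 3 a single library set the group mean, and the groups overlapped. XLOC_027634 on chromosome 7 (55184371 to 55193345) likewise reached 162 RPKM in microgravity replicate 2, was at 0 in replicate 3 and at 21.3 RPKM in replicate 1, and had 56.6, 44.9 and 31.2 RPKM in control. Microgravity replicate 2 was the highest library at 64 members in all, beside 66 for microgravity replicate 1, 55 for replicate 3, and 59, 49 and 51 for the control libraries.

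A few members reached at least 62.9 RPKM in more than 1 library and were still listed at 0 in 1. XLOC_004208 on chromosome 11 (6779424 to 6781430, mm9) had the highest mean of all members. It was at 296, 0 and 15.002 RPKM in control and at 81.8, 172 and 242 RPKM in microgravity, so the control libraries alone spanned the whole range. XLOC_025073 on chromosome 6 (39788045 to 39794741) was at 0 in control replicate 1 and at 96.6 and 71.1 RPKM in the other control libraries, and at 27.0, 22.3 and 40.4 RPKM in microgravity. XLOC_021654 on chromosome 4 (96049957 to 96055504) was at 18.2, 0 and 91.0 RPKM in control and at 34.0, 85.5 and 25.4 RPKM in microgravity. For both, 1 control library was at 0 while another was the highest of the 6. XLOC_027278 on chromosome 7 (144945905 to 144982262) was at 79.9, 62.9 and 6.98 RPKM in control and at 61.3, 0 and 43.6 RPKM in microgravity. XLOC_030700 on chromosome 9 (33246949 to 33255412) had the third highest mean and never reached 0. Its values were 87.3, 47.6 and 104 RPKM in control and 102, 30.2 and 8.22 RPKM in microgravity, where only replicate 3 was low.

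At the other end were members seen in few libraries. Of the 344, 256 (74.4%) were above 0 in every library, 63 were at 0 in 1 library, 16 in 2, 6 in 3 and 3 in 4. Of the 88 with a 0, 40 had it in control only, 34 in microgravity only and 14 in both. The 3 loci at 0 in 4 libraries were each seen in a different pair. XLOC_002926 on chromosome 10 (4197872 to 4223657, mm9) was seen only in microgravity replicates 2 and 3, at 50.7 and 27.9 RPKM. XLOC_008648 on chromosome 13 (100574682 to 100596240) was seen only in control replicates 2 and 3, at 10.1 and 16.3 RPKM. XLOC_007775, also on chromosome 13 (9245615 to 9251501), was at 8.80 RPKM in control replicate 1 and at 77.9 RPKM in microgravity replicate 3. The first 2 were thus seen within 1 group, though in 2 of its 3 libraries, and the last in both.

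Loci at 0 in 3 libraries mostly mixed the groups. XLOC_019361 on chromosome 3 (125669790 to 125697830, mm9) was at 55.2 and 25.9 RPKM in control replicates 1 and 2 and at 35.6 RPKM in microgravity replicate 1, and at 0 in the rest. XLOC_012339 on chromosome 16 (12952576 to 12968985) was at 0, 19.4 and 7.85 RPKM in control and at 0, 0 and 9.54 RPKM in microgravity. XLOC_019655 on chromosome 3 (61111056 to 61114092) was at 0, 0 and 8.99 RPKM and at 18.1, 6.09 and 0 RPKM. Each of these loci was above 0 in at least 1 library of each group. XLOC_012339 was still under 10 RPKM in all microgravity libraries, and XLOC_019655 in all control libraries. XLOC_005262 on chromosome 11 (75617752 to 75620542), with 0, 0 and 3.13 RPKM in control and 15.1, 0 and 3.78 RPKM in microgravity, had the lowest mean of all members, 3.68 RPKM. Only microgravity replicate 1 was above 10 RPKM there.

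Libraries that shared little at these loci resembled each other closely elsewhere. Across the 344 members, Pearson's r of log2(RPKM + 1) between 2 libraries lay between 0.017 and 0.17 among control pairs, between 0.15 and 0.16 among microgravity pairs and between -0.12 and 0.14 across the groups. Over the other 2041 mid-length loci it lay between 0.92 and 0.94 for all 15 pairs. These are descriptions across loci, which are not independent replicates. The members' narrow range of means and the demand for a low library both lower r among them. Control replicates 1 and 2 had the most members low in both, 43. That is 37.1% of the low members of replicate 1 and 35.8% of those of replicate 2. They were also the libraries with the most low members, 116 and 120, which favours a large overlap. The other pairs shared 23 to 34.

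Values of members often stood in ratios of small whole numbers between certain libraries. Where values come from whole reads, 2 libraries with the same read value give such ratios at loci with few reads. For each pair the relative value of 1 read was set from low loci that were not members, searched only near 1. Ratios of whole numbers up to 8 were then counted with a tolerance of 0.15%. Between microgravity replicates 1 and 3, 109 of 292 members (37.3%) stood in such a ratio. Among the other mid-length loci the share was 16.3% with a mean under 60 RPKM and 6.16% at or above 60 RPKM. The other loci under 60 RPKM were not matched to the members in level. Members made up 91.2% of mid-length loci between 10 and 20 RPKM and 5.41% between 40 and 60 RPKM. The share of members was 17.8% between control replicate 3 and microgravity replicate 2, against 8.75% of the other loci under 60 RPKM. It was 13.0% between control replicate 2 and microgravity replicate 3 (against 6.59%). Between control replicate 2 and microgravity replicate 1 it was 12.6% (against 6.73%). In the other 11 pairs it was between 2.12% and 5.54%. In each of these pairs that was under the share of the other loci under 60 RPKM (5.92% to 7.67%). The value of 1 read was set from low loci that were not members, which favours a higher share among such loci. No result is read from this order. Control replicate 1 stood in no pair with a raised share.

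**Figure D5:**
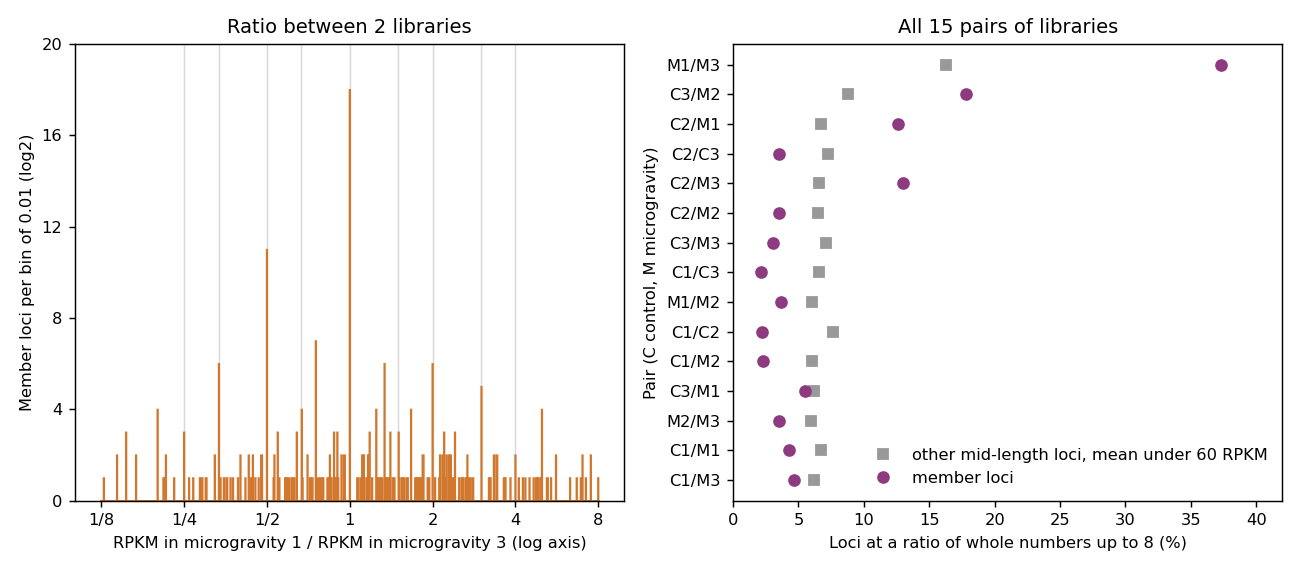
On the left, members are counted by the ratio of microgravity replicate 1 to replicate 3 in narrow bins on a log axis, with grey lines at ratios of small whole numbers, and the highest spikes stand at 1 and 1/2. On the right, the share of loci at such ratios is given for each of the 15 pairs, where the members reach 37.3% for M1/M3 and 2.12% at the lowest.

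Single loci show these steps directly. XLOC_000700 had 13.8 and 2.76 RPKM in microgravity replicates 1 and 3, a ratio of 5.01 (whole numbers 5 and 1). XLOC_005262 had 15.1 and 3.78 RPKM, a ratio of 4.01 (4 and 1), and XLOC_023812 had 12.9 and 6.43 RPKM, a ratio of 2.003 (2 and 1). XLOC_007889 had 22.3 RPKM in both, a ratio of 1.001. If such values are whole reads, 1 read at the 109 loci was worth at most a median of 6.16 RPKM (quartiles 3.39 and 10.6). It may have been worth less, because a ratio gives only the smallest pair of whole numbers. The reads behind each value are otherwise unknown, and the part of counting error in the low values was not tested.

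The members lay on all chromosomes listed, with uneven shares. Chromosome 16 had the highest share of its mid-length loci among the members (25 of 86, 29.1%), followed by chromosome 2 (30 of 129, 23.3%), chromosome 19 (12 of 57, 21.1%) and chromosome 13 (30 of 154, 19.5%). Chromosome 12 had the lowest (8 of 107, 7.48%), then chromosome 6 (11 of 129, 8.53%), and the X chromosome had 10.7% (9 of 84). The shares did not follow the order of the median mean level of each chromosome's mid-length loci. Chromosome 18 had the lowest such median (49.5 RPKM) and a share of 16.4%, and chromosome 16, at 62.1 RPKM, had the highest share. How far loci at low levels or small numbers per chromosome bear on the uneven shares was not tested. Members were somewhat shorter in span, with a median of 7784 bp against 9800 bp. Their share went from 17.2% of loci between 2000 and 5000 bp to 11.2% of those between 20000 and 50000 bp. Shorter loci were also less abundant (median mean level of 58.2 against 81.6 RPKM). Among loci with a mean between 20 and 30 RPKM, the shares by span were 44.9%, 44.9%, 47.9% and 41.9%, with no order by span.

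Neighbouring members did not generally drop out together. Members lay within 100000 bp of the next member in 13 cases, of which 4 shared a low library and 1 had the same set. Over all 324 adjacent pairs on a chromosome, 152 shared a low library. The closest pair, XLOC_017334 and XLOC_018100 on chromosome 2, lay 3398 bp apart. XLOC_017334 (170126893 to 170148892, mm9) was at 23.6, 45.3 and 4.67 RPKM in control and at 5.60, 7.12 and 19.6 RPKM in microgravity. XLOC_018100 (170152290 to 170157203) was at 28.4, 33.8 and 23.3 RPKM and at 44.3, 8.20 and 10.8 RPKM. They shared only microgravity replicate 2 as a low library.

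On chromosome 1, XLOC_001403 and XLOC_001404 lay 8337 bp apart and shared no low library. XLOC_001403 (187362429 to 187365128, mm9) was at 22.8, 86.2 and 10.5 RPKM in control and at 8.49, 3.56 and 42.4 RPKM in microgravity. XLOC_001404 (187373465 to 187381079) was at 20.985, 37.7 and 3.94 RPKM and at 10.9, 26.6 and 4.67 RPKM, so microgravity replicates 2 and 3 were in opposite order at the 2 loci. On chromosome 13, XLOC_007776 (9268194 to 9273244), 16693 bp from XLOC_007775, was above 10 RPKM in every library but control replicate 2. Its values were 71.5, 6.22 and 123 RPKM in control and 52.3, 31.2 and 24.6 RPKM in microgravity, while XLOC_007775 was at 0 in 4 of these libraries.

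A pair on chromosome 13 had higher values in microgravity at both loci. XLOC_007889 (35605032 to 35607886, mm9) was at 10.8, 12.0 and 7.52 RPKM in control and at 22.3, 29.2 and 22.3 RPKM in microgravity. XLOC_008354 (35632898 to 35635200), 25012 bp away, was at 37.4, 8.95 and 22.1 RPKM and at 38.3, 54.9 and 61.9 RPKM. The groups did not overlap at either, but the log2 differences of 1.22 ± 0.70 and 1.32 ± 0.52 did not pass (limma, adjusted p = 0.660 and 0.616). The last pair, XLOC_018092 (168616179 to 168626105) and XLOC_017328 (168653984 to 168663992) on chromosome 2, lay 27879 bp apart. XLOC_018092 was at 23.3, 27.4 and 26.8 RPKM in control and at 46.9, 29.3 and 9.85 RPKM in microgravity, and XLOC_017328 at 11.04, 14.98 and 2.10 RPKM and at 12.4, 36.9 and 24.8 RPKM. They were low in different libraries.

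Loss in single libraries was found in the other kinds of loci too. Loci under 10 RPKM in at least 1 library made up 28.2% of loci under 2000 bp (87 of 309), 10.1% of those of 50000 bp or more (32 of 316) and 9.76% of those with repeated coordinates (29 of 297), against 14.4% here. Of all listed loci, 492 (14.9%) had such a library. Whole-library values were similar throughout: RPKM summed to between 892582 and 928980 per library, and no 2 libraries had an identical value above 0 at any locus.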

How the data were processed

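The authors deposited 1 table per library with the lncRNA identifier, its coordinates and its RPKM value, per the file headers. Per the submitters' processing notes, coordinates are of mm9. For the aligner, assembler, counting method, strand setting and scaling, nothing is stated: not given in the sources used here. Groups and replicate numbers came from the sample titles. The 6 tables were joined by identifier, and members were taken by the rule given in the report. The members, rules and tests were chosen with earlier results of these data known. The 2 groups were compared with limma 3.58.1 (R 4.3.3). The values were log2(RPKM + 1), with trend and robust moderation, and a locus had to reach 1 RPKM in 3 or more libraries. Tests were two-sided, with Benjamini-Hochberg adjustment over all loci tested and a threshold of 0.05. Fold changes on this scale understate the change of low loci. The fit was tested on simulated data. No count per library or score over the members was tested. Reads per library are unknown, so no counting interval is given. Loci were named by fixed criteria: loss in the whole of 1 group (up to 8 per direction), the 5 smallest p in each direction, the most values of 0 (8 loci), the 5 highest single values, the 5 highest means, the 5 highest second values among loci with a 0, the 5 closest pairs, and the loci at the limits of the rule. No gene or marker list was used. Tables were handled in Python 3.11.15 with pandas 2.3.3, and plots drawn with matplotlib 3.10.9.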

Additional observations from a re-analysis of the deposited data

How the results depend on the processing

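The count of 0 called members held under every alternative of the fit that was run, except without control replicate 1 (0 to 1 over the 6 fits without single libraries). Members at unadjusted p under 0.05 numbered 30. There were 18 with a pseudocount of 0.1, 21 to 38 without single libraries and 31 to 41 under the other alternatives that changed the number. Of the 30, between 13 and 24 were found again without single libraries and 18 to 30 otherwise. A fit with a replicate block gave 0 calls and 30 such members. The deviations of same-numbered libraries from their group means had correlations of 0.017, -0.0037 and -0.017, and the numbers were not used to pair libraries. Members low in the whole of 1 group only, 8 at 10 RPKM, were 1 at 5 RPKM, 16 at 20 RPKM, 1 when only values of 0 counted, and 13 to 24 without single libraries, where fewer libraries had to be low or present. The difference in low members per library, microgravity minus control, was -10 in the report. It was -3 at 5 RPKM, -11.7 at 20 RPKM and -1 when only values of 0 counted. After median scaling it was -7.67, and without single libraries -20 to -4, so it kept its sign. All these moves were under 1 SD between libraries (15.5), a wide band that also holds no difference. The number of members was 344 with a mean limit of 200 or 800 RPKM and 360 with repeated coordinates kept. The 15 loci chosen by group-wide loss or smallest p gave 210 values over 14 alternatives. Of these, 209 kept their direction and side of the threshold, and 1, XLOC_001319 without control replicate 1, passed it. The groups did not overlap at any of the 15 loci, so leaving out a library could not reverse a direction. Changing only the filter, the moderation or the replicate block left the log2 difference as it was. The kept directions are thus largely built into the choice of loci. The alternatives for non-overlapping groups (31 higher and 22 lower after median scaling, 31 and 21 after quantile normalization, and 81 to 96 in all without single libraries, against 53), and the medians and sums without single libraries or loci, were chosen after seeing the data.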
